A study of Mus musculus with 9 samples.

Results

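The results concern 10 genes of signalling through cyclic AMP (cAMP) in spleen regulatory T cells (Tregs) of mice: the receptor activity-modifying proteins Ramp1 and Ramp3, the adenosine receptor gene Adora2a, the prostaglandin receptor gene Ptger4, the adenylyl cyclase genes Adcy6 and Adcy7, the phosphodiesterase genes Pde3b, Pde4b and Pde4d, and the transcription factor gene Crem. They were selected on their measured levels in these same libraries and taken by symbol from the 23393 gene rows of the count tables. All 10 were found and were abundant enough to be tested, among 12219 genes tested in all. RNA was sequenced in 9 libraries. The label gave 3 of them as WT with low ST2 (called ST2-low here), 3 as WT with high ST2 (ST2-high) and 3 as the genotype ST2KO. ST2, encoded by Il1rl1, is the receptor for interleukin-33, and the study asks about ST2-bearing Tregs in kidney inflammation and fibrosis after ischemia. The labels name no knockout allele, strain, age, sex, treatment or injury for any group, and they do not say how the ST2KO cells were gated or whether the replicates of a group came from separate animals. The p-values below therefore measure the spread between these libraries, which may be technical.

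cAMP is a second messenger. Receptors coupled to the stimulatory G protein Gs, among them those for adenosine and prostaglandin E2, activate adenylyl cyclases, which make cAMP from ATP, and phosphodiesterases break it down. cAMP activates protein kinase A and the exchange factors known as EPAC, and protein kinase A phosphorylates transcription factors of the CREB family, whose relative CREM also gives rise to the short repressor ICER. In T cells a rise in cAMP dampens activation, and Tregs are known for high cAMP and for passing it to other cells. RAMP proteins are single-pass partners of the calcitonin receptor and of the calcitonin receptor-like receptor (Calcrl): with RAMP1 the latter binds the neuropeptide CGRP, and with RAMP2 or RAMP3 it binds adrenomedullin.

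Sequencing depth was 16192861 to 29261391 counts in the wild-type libraries and 11638480 (replicate 3) to 43323449 (replicate 1) in ST2KO. Il1rl1 stood at 2.62 ± 0.837 CPM (counts scaled to a common library size) in ST2-low, 495 ± 66.0 in ST2-high and 67.6 ± 14.0 in ST2KO (mean ± SD, n = 3 each). A count for the whole gene cannot tell deleted from remaining exons, so these values do not test the knockout label, and ST2KO below means the libraries so labelled. Foxp3, which defines Tregs, was at 462, 568 and 430.2 CPM on average in ST2-low, ST2-high and ST2KO. Over 8 Treg markers, Foxp3 included, the summed level was 5597 to 5780.1 CPM in ST2-low, 6142 to 6593 CPM in ST2-high and 3914 to 4064 CPM in ST2KO. In ST2KO against ST2-low, 3 of the 8 were called lower (Lrrc32 3.29-fold, Ctla4 2.54-fold and Tnfrsf18 1.48-fold), 4 were called higher (Nrp1, Il2ra, Ikzf2 and Folr4, 1.17-fold to 1.58-fold) and Foxp3 was not called. The part of this difference in the results below was not tested. ST2-high replicate 3 stood apart from the other libraries of its group (chi-square per gene 16.5 and 19.9, against 4.46 to 8.22 in other pairs of replicates). Results given below for single genes that change without it are marked, while counts of single lists are given with all 9 libraries only. Levels are CPM scaled by TMM factors, and "called" means an adjusted p under 0.05 across all tested genes in the quasi-likelihood F test of edgeR, with p adjusted by the Benjamini-Hochberg procedure.

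The 10 genes were proposed with these comparisons already known, so their levels, folds and calls are given as a description and not as evidence. In ST2KO, 6 of the 10 were called lower than in ST2-low (Ramp3, Adora2a, Pde3b, Pde4b, Pde4d and Crem) and 4 higher (Ramp1, Ptger4, Adcy6 and Adcy7). Of all tested genes, 62.3% were called in that comparison, 29.3% lower and 33.0% higher, so a call alone sets a gene little apart. The median log2 fold change was -0.72 over the 10 genes and 0.05 over all tested genes. Against ST2-high, ST2KO had 6 called lower (Ptger4 in place of Pde3b) and 3 higher (Ramp1, Adcy6 and Adcy7), beside 64.5% of all tested genes called, 32.6% lower and 31.9% higher. Between ST2-high and ST2-low, 4 were called higher (Ramp3, Adora2a, Ptger4 and Adcy7) and 3 lower (Adcy6, Pde3b and Pde4d), beside 26.1% of all tested genes, 15.3% higher and 10.8% lower. The libraries of the groups did not overlap for 10 of the 10 genes in ST2KO against ST2-low (67.2% of all tested genes), for 9 in ST2KO against ST2-high (66.8%) and for 8 in ST2-high against ST2-low (38.1%). The 3 comparisons share their libraries pairwise, so they are not separate observations.

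**Figure D1:**
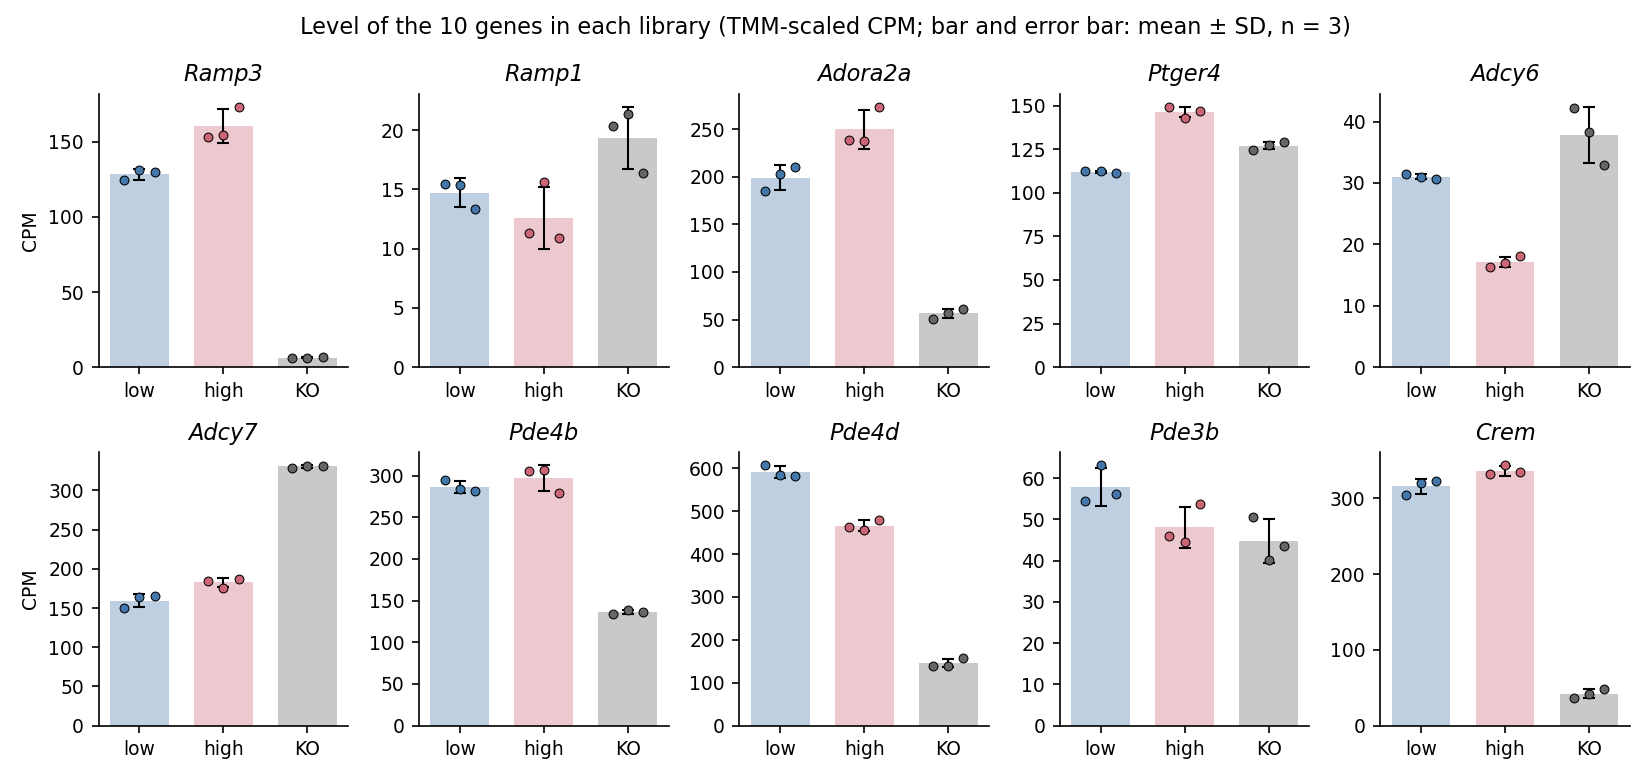
Level of each of the 10 genes in each library, as TMM-scaled CPM on linear axes that start at 0; points are libraries, bars the mean and error bars the SD of 3 libraries for ST2-low (low), ST2-high (high) and ST2KO (KO). Ramp3, Adora2a, Pde4b, Pde4d and Crem are low in all 3 ST2KO libraries, Adcy7 is high in them, and Adcy6 is lowest in ST2-high.

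Promoter sequence was at hand for some of the genes and is shown because Ramp3 and Pde4b were low and Adcy7 high in the same ST2KO libraries. CREB and CREM bind the cAMP response element TGACGTCA and its core TGACG, which reads CGTCA on the other strand. RefSeq promoter windows (GRCm38.p6, 250 bases before to 50 bases after a start site) matched 6 of the 10 genes, with 11 windows in all. Adora2a, Adcy6, Pde3b and Crem had none. The full element was in 0 of the 11 windows and in 1.79% of all 32851 windows. The core, searched on both strands and also present inside each full element, was in 3 of the 11 windows and in 20.8% of all windows. It lay at positions -34 to -30 in 1 of 4 windows of Pde4b, at -28 to -24 in 1 of 3 windows of Adcy7, and at 11 to 15 in the window of Ramp1, counted from the first transcribed base as 1. The 250 bases before the start are printed for Ramp3 (chr11:6658283-6658532, plus strand), which has no match, and for the windows of Pde4b (chr4:102421305-102421554, plus strand) and Adcy7 (chr8:88282742-88282991, plus strand) that hold the core, which is in capitals.
Ramp3: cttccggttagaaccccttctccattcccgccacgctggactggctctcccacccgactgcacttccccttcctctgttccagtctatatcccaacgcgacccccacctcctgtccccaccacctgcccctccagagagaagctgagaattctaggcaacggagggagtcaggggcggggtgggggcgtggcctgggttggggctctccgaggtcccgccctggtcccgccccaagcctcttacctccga
Pde4b: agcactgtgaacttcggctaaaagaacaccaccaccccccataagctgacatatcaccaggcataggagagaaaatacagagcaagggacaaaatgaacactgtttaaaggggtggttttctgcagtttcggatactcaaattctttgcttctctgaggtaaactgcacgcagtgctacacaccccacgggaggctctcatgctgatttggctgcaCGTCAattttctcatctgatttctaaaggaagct
Adcy7: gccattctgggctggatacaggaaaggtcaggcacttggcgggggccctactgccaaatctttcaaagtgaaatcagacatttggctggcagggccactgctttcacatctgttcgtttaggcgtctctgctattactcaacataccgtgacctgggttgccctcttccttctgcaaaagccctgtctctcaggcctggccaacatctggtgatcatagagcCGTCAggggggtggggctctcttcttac
The core was found in a window of Pde4b, low in ST2KO, and in windows of Adcy7 and Ramp1, high there. The windows of Ramp3 and Pde4d, both low in ST2KO, and of Ptger4 held none. With 3 of 11 windows beside 20.8% of all windows, no link to the direction of a gene is drawn, and none was tested. Counts per gene do not tell which start site was used, and a match of letters is not a binding site.

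Ramp3, the adrenomedullin receptor partner, showed the largest change of the 10 genes. It stood at 124, 131 and 129.7 CPM in ST2-low replicates 1, 2 and 3 and at 154, 155 and 174 CPM in ST2-high. In ST2KO it stood at 6.10, 6.25 and 6.79 CPM, from 281, 107 and 83 counts. The groups did not overlap in any comparison, and the wild-type libraries were all far above the ST2KO libraries. Ramp3 was 20.4-fold lower in ST2KO than in ST2-low (log2 fold change -4.35 ± 0.08, SE) and 25.5-fold lower than in ST2-high. Within the wild type it was 1.25-fold higher in ST2-high (log2 fold change 0.32 ± 0.06, SE).

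Ramp1, the CGRP receptor partner, did not follow Ramp3. Its levels were 15.5, 15.4 and 13.3 CPM in ST2-low, 11.3, 15.6 and 10.9 CPM in ST2-high, and 20.4, 21.3 and 16.4 CPM in ST2KO. The wild-type groups overlapped, and all 3 ST2KO libraries were above all wild-type libraries. Ramp1 was 1.33-fold higher in ST2KO relative to ST2-low (log2 fold change 0.41 ± 0.12, SE) and 1.56-fold higher than in ST2-high (0.64 ± 0.12). Between ST2-high and ST2-low it was not called, with a log2 fold change of -0.23 ± 0.13 (SE). That comparison hung on ST2-high replicate 2, the highest of its group, without which the log2 fold change was -0.40 and was called.

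The ratio of Ramp3 counts to Ramp1 counts within a library does not depend on how libraries are scaled. It was 8.04, 8.52 and 9.74 in ST2-low, 13.6, 9.92 and 15.95 in ST2-high, and 0.299, 0.293 and 0.415 in ST2KO. The 3 groups did not overlap, and only in ST2KO did Ramp1 have more counts than Ramp3. Per kilobase of annotated exon (GENCODE M21), which allows levels of different genes to be set side by side, Ramp3 averaged 93.0 CPM in ST2-low, 116 in ST2-high and 4.62 in ST2KO, and Ramp1 averaged 4.87, 4.17 and 6.41. On that scale the order of the partners was thus reversed in ST2KO.

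The other genes of the calcitonin family were measured on the same libraries. Calcrl, the receptor that RAMP proteins accompany, averaged 30.6 ± 2.46 CPM in ST2-low, 33.9 ± 2.67 in ST2-high and 35.9 ± 1.55 in ST2KO (mean ± SD, n = 3). It was called 1.18-fold higher in ST2KO relative to ST2-low (edgeR adjusted p = 0.0119). The call was lost without ST2-low replicate 1, without ST2KO replicate 1 and with DESeq2's Wald test, with the adjusted p over the edgeR, limma and DESeq2 alternatives lying between 0.00835 and 0.0993. Counts of Ramp3 per count of Calcrl were 4.05 to 5.11 in the wild-type libraries and 0.162 to 0.195 in ST2KO. Ramp2, the calcitonin receptor gene Calcr and the ligand genes Calcb and Adm2 had 0 counts in all 9 libraries. The same was true of 6642 of all 23393 gene rows. The amylin gene Iapp had at most 2 counts. At the depth of the shallowest library, ST2KO replicate 3, 0 counts allow a level of up to 0.245 CPM, an upper limit from 3 counts that covers counting error only. It does not cover reads that the counting, whose method is not given, may have left out. Adrenomedullin (Adm) and the CGRP gene Calca were scarce, with at most 24 and 21 counts in a library. In ST2KO, Calca had 6, 0 and 2 counts against 12 to 18 in ST2-low and 4 to 21 in ST2-high, and was called lower in both comparisons (edgeR adjusted p = 0.0012 and 0.00234). Adm had 10, 10 and 0 counts in ST2KO and was called lower than in ST2-high (edgeR adjusted p = 0.00519) but not than in ST2-low (adjusted p = 0.0914). Without ST2KO replicate 1 the first call was lost (edgeR adjusted p = 0.0501), and the second comparison was called with limma-voom, without ST2-low replicate 2 and without ST2KO replicate 2 (adjusted p down to 0.0212). Crcp, named as a component of the CGRP receptor complex, was 1.47-fold higher in ST2KO relative to ST2-low (13.4 ± 0.390 against 9.03 ± 1.76 CPM, edgeR adjusted p = 0.000496). Its 1.31-fold difference between ST2-high and ST2-low (edgeR adjusted p = 0.0309), groups that overlapped, was lost in 5 of 17 alternatives, among them without ST2-low replicates 1 or 2 and without ST2-high replicates 1 or 3.

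The 2 Gs-coupled receptors differed from each other in ST2KO. Adora2a, an adenosine receptor, stood at 185, 203 and 210.3 CPM in ST2-low, 239, 238 and 274 CPM in ST2-high, and 51.0, 56.9 and 61.2 CPM in ST2KO. No groups overlapped. It was 3.57-fold lower in ST2KO than in ST2-low (log2 fold change -1.84 ± 0.07, SE), 4.48-fold lower than in ST2-high, and 1.25-fold higher in ST2-high relative to ST2-low.

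Ptger4, the EP4 receptor for prostaglandin E2, stood at 112, 112 and 111 CPM in ST2-low, 149, 143 and 147 CPM in ST2-high, and 125, 127 and 129 CPM in ST2KO. The ST2KO libraries thus lay between the wild-type groups and overlapped neither. Ptger4 was 1.31-fold higher in ST2-high relative to ST2-low (log2 fold change 0.39 ± 0.05, SE), 1.13-fold higher in ST2KO relative to ST2-low and 1.15-fold lower in ST2KO than in ST2-high. Adora2a counts per Ptger4 count were between 1.60 and 1.89 in the wild-type libraries, whose groups overlapped, and between 0.408 and 0.475 in ST2KO. In GENCODE M21 the locus of Ptger4 overlaps Ttc33 on the opposite strand, which was at 15.2 to 20.9 CPM on average in the groups. The strand setting of the counting is not given in the sources used here, so reads of the overlap cannot be told apart.

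The cyclase genes were the only ones of the 10 that were higher in ST2KO than in both wild-type groups apart from Ramp1. Adcy7, a cyclase typical of blood cells, stood at 149.6, 164 and 165 CPM in ST2-low, 185, 176 and 187 CPM in ST2-high, and 329, 332 and 332 CPM in ST2KO. The ST2KO libraries lay close together and above all others. Adcy7 was 2.07-fold higher in ST2KO relative to ST2-low (log2 fold change 1.05 ± 0.05, SE) and 1.81-fold higher than in ST2-high. Between ST2-high and ST2-low the log2 fold change was 0.19 ± 0.05 (SE), a call that was lost without ST2-low replicate 1, the lowest of its group.

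Adcy6, a cyclase inhibited by calcium, was the member that set the wild-type groups furthest apart. It stood at 31.4, 30.9 and 30.7 CPM in ST2-low, 16.4, 16.9 and 18.1 CPM in ST2-high, and 42.2, 38.3 and 33.0 CPM in ST2KO. ST2-high was low in every library, and the ST2KO libraries spread more widely than the others, with replicate 3 close to ST2-low. Adcy6 was 1.82-fold lower in ST2-high relative to ST2-low (log2 fold change -0.86 ± 0.09, SE) and 2.24-fold higher in ST2KO than in ST2-high. Its 1.23-fold difference between ST2KO and ST2-low (log2 fold change 0.30 ± 0.08, SE) was not called without ST2KO replicate 1, where the log2 fold change was 0.21.

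Adcy7 counts per Adcy6 count were 4.76, 5.30 and 5.39 in ST2-low, 11.3, 10.4 and 10.35 in ST2-high and 7.80, 8.65 and 10.05 in ST2KO. The ratio was lowest in ST2-low and the 3 groups did not overlap. Of the other 8 cyclase genes, 3 were abundant enough to be tested. Adcy3, a cyclase found in many tissues, was called 1.15-fold higher in ST2KO relative to ST2-low (50.1 ± 0.751 against 43.7 ± 1.68 CPM, edgeR adjusted p = 0.0112), a call lost with DESeq2's test and without ST2-low replicate 2 (adjusted p up to 0.0916).

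The phosphodiesterase genes changed by different amounts. Pde4d, which hydrolyses cAMP and not cGMP as do all PDE4 enzymes, stood at 608, 585 and 583 CPM in ST2-low, 463, 456 and 480.1 CPM in ST2-high, and 139, 140.3 and 157 CPM in ST2KO. The groups formed 3 steps without overlap. Pde4d was 4.07-fold lower in ST2KO than in ST2-low (log2 fold change -2.03 ± 0.05, SE), 3.21-fold lower than in ST2-high, and 1.27-fold lower in ST2-high relative to ST2-low.

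Pde4b, a PDE4 enzyme associated with T cell receptor signalling, stood at 295, 284 and 281 CPM in ST2-low and at 306, 306 and 279.6 CPM in ST2-high. In ST2KO it stood at 133, 138 and 136 CPM. The wild-type groups overlapped and both lay above ST2KO. Pde4b was 2.11-fold lower in ST2KO than in ST2-low (log2 fold change -1.08 ± 0.05, SE) and 2.19-fold lower than in ST2-high. Between ST2-high and ST2-low its log2 fold change was 0.05 ± 0.05 (SE) and was not called.

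Pde3b, which cyclic GMP inhibits, changed least of the 3 in ST2KO. Its levels were 54.5, 63.2 and 56.0 CPM in ST2-low, 46.0, 44.4 and 53.7 CPM in ST2-high, and 50.7, 40.1 and 43.6 CPM in ST2KO. ST2-high and ST2KO overlapped, and ST2-low lay just above both. Its log2 fold changes were -0.27 ± 0.08 (SE) in ST2-high and -0.35 ± 0.08 (SE) in ST2KO against ST2-low. The first was not called without ST2-low replicate 2, without ST2-high replicate 1 or without ST2-high replicate 2. Against ST2-high, ST2KO differed by a log2 fold change of -0.08 ± 0.08 (SE).

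Counts of Pde4d per count of Pde4b were 2.06 to 2.08 in ST2-low, 1.49 to 1.72 in ST2-high and 1.01 to 1.15 in ST2KO, with no overlap between groups. Per kilobase of annotated exon, Pde4d averaged 49.3 CPM in ST2-low against 27.1 for Pde4b and 6.35 for Pde3b. In ST2KO the same levels were 12.1, 12.9 and 4.91 CPM, and Pde4d and Pde4b there differed by less than the SD of Pde4d between libraries (0.831).

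Crem stood at 304, 320.1 and 324 CPM in ST2-low, 332, 344 and 334 CPM in ST2-high, and 36.2, 42.1 and 48.0 CPM in ST2KO. The wild-type libraries were close together, ST2-high just above ST2-low, and the ST2KO libraries far below. Crem was 7.64-fold lower in ST2KO than in ST2-low (log2 fold change -2.93 ± 0.07, SE) and 8.14-fold lower than in ST2-high. Between the wild-type groups its log2 fold change was 0.09 ± 0.06 (SE), not called although the libraries did not overlap, as was true of 38.1% of all tested genes in that comparison. Counts per gene do not separate full-length CREM from the ICER transcripts of the same gene. A transcript annotated on the opposite strand of Crem, Gm6225, averaged 2.78 to 4.73 CPM in the groups.

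**Figure D2:**
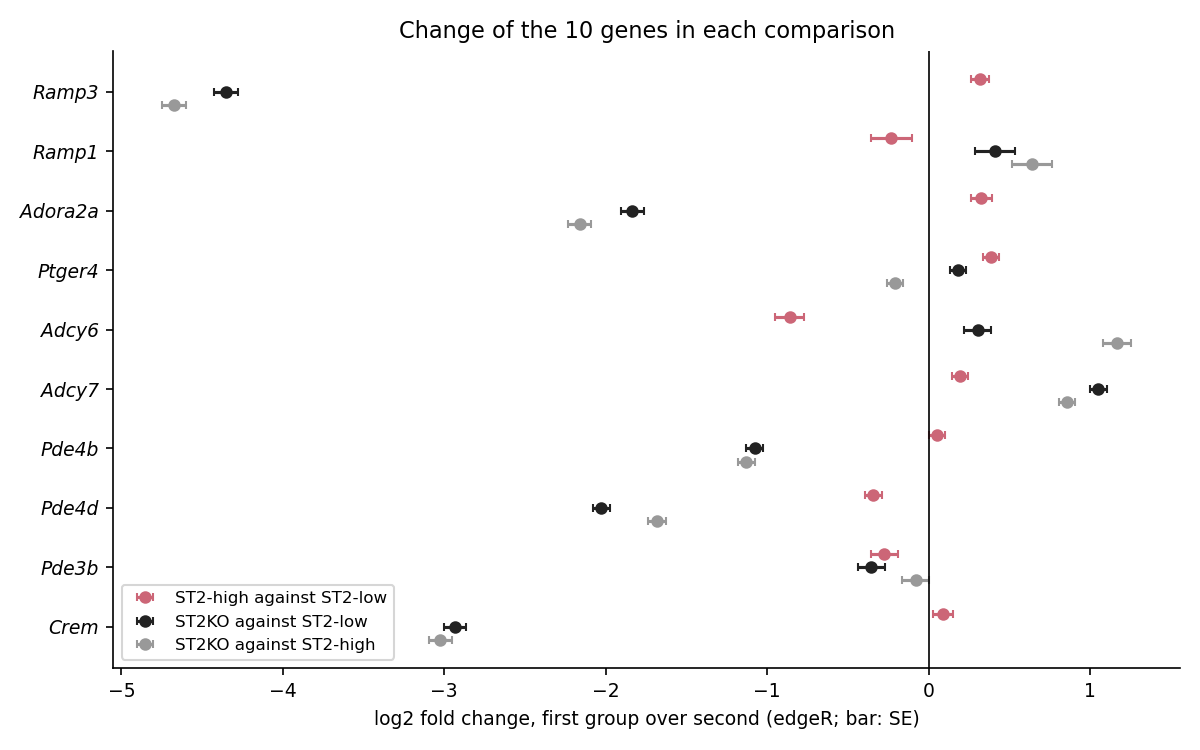
Log2 fold change of each of the 10 genes in the 3 comparisons, first-named group over second, from the edgeR fit; bars are the SE. Ramp3 and Crem lie furthest to the left in both comparisons with ST2KO (-4.35 and -2.93 against ST2-low), and only Adcy6 lies below -0.5 in ST2-high against ST2-low.

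Over the 9 libraries, the log2 levels of Crem, Pde4b, Adora2a and Pde4d correlated with those of Ramp3 with Pearson's r of 0.998, 0.995, 0.994 and 0.975, and Adcy7 with r = -0.966. Ptger4 had r = 0.09. The 9 libraries fall into 3 groups, so these values mostly restate the difference between ST2KO and the wild type, and no p is given. Among the 8829 tested genes with a mean of at least 5 CPM that have a gene name and are none of the 10, the pattern most like that of Ramp3 was in Gramd3, Gpr132, Tpm4, Mxi1 and Spata2, with r between 0.9986 and 0.9992. Gpr132, a receptor related to proton sensors, averaged 810.0 CPM in ST2-low, 864 in ST2-high and 188 in ST2KO. The pattern most like that of Adcy6 was in Card6, Ift80, Znrf3, Bcl2 and Znrf1 (r between 0.984 and 0.997). Bcl2, the survival gene, averaged 313, 190.5 and 339 CPM in the same order.

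The rest of the pathway was described by 11 lists that hold none of the 10 genes. Of their 123 genes, 93 were tested. In ST2KO against ST2-low, 41 were called lower, 28 higher and 24 were not called, that is 74.2% called against 62.3% of all tested genes, with a median log2 fold change of -0.14 against 0.05. Against ST2-high, 43 were lower and 24 higher, that is 72.0% against 64.5%. The list of genes that cAMP is known to induce gave 13 of the 41 lower and 0 of the 28 higher against ST2-low. Against ST2-high it gave 12 of the 43 lower and 1 of the 24 higher. Some of its genes were known to be low in ST2KO when it was written, so the pooled lean to lower is not independent of that choice. In ST2-high against ST2-low, 21 were higher, 17 lower and 55 not called, that is 40.9% against 26.1%. The cAMP-induced list gave 5 of the 21 higher and 3 of the 17 lower. All 11 lists were written with earlier results of these data known. These shares, and those of single lists below, are therefore a description and not independent evidence.

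**Figure D3:**
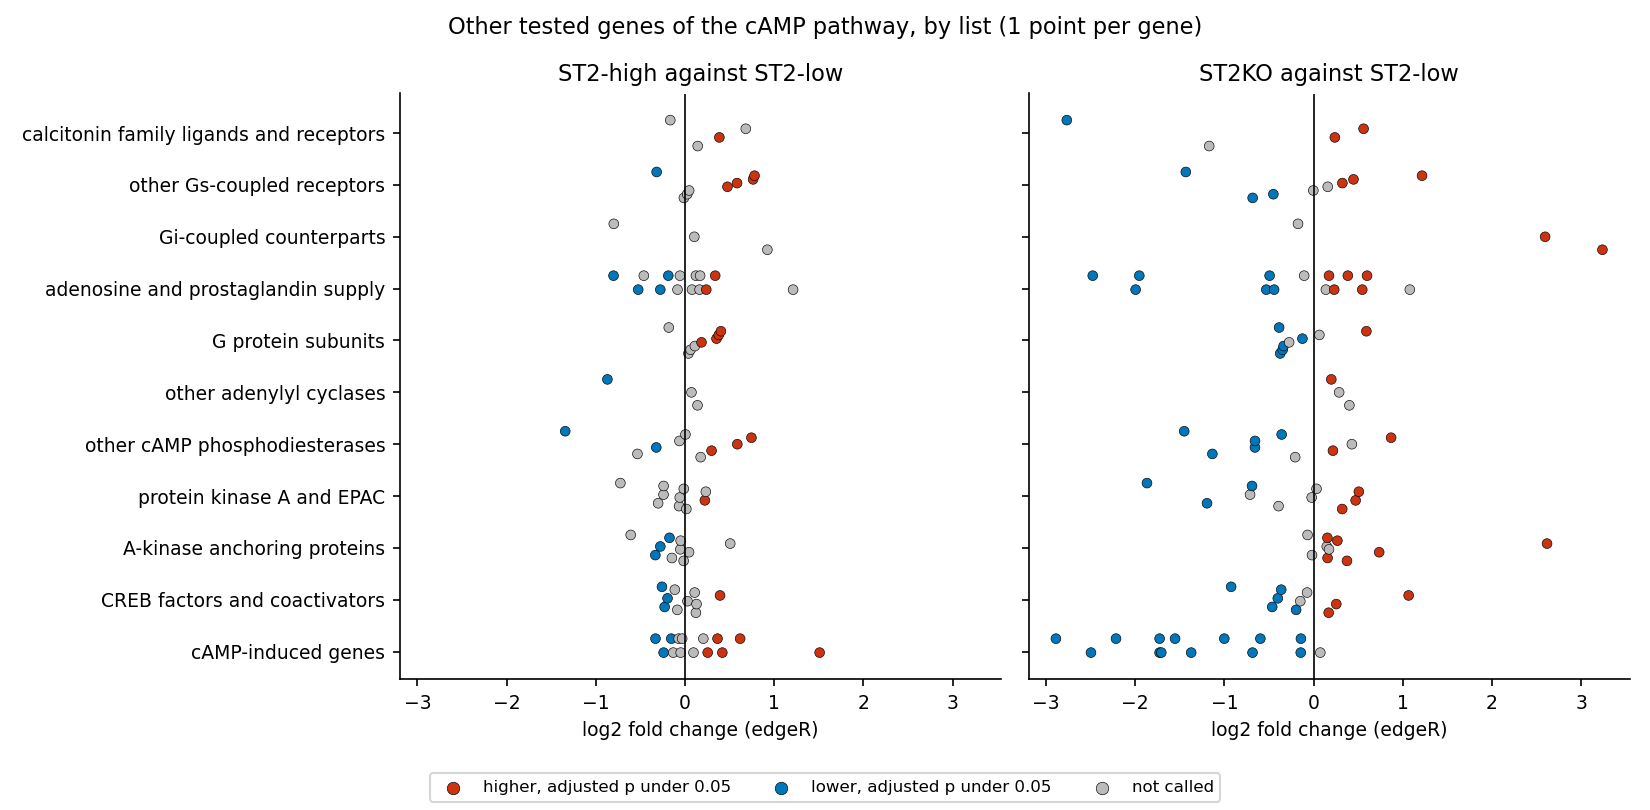
Log2 fold change of the 93 tested genes of 11 cAMP pathway lists, 1 point per gene, in ST2-high against ST2-low (left) and ST2KO against ST2-low (right), coloured by the call in edgeR at an adjusted p under 0.05. The points of the cAMP-induced list lie left of 0 in the right panel for 13 of 14 genes and on both sides of 0 in the left panel.

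Of 14 genes that cAMP is known to induce in various cells, 13 were called lower in ST2KO than in ST2-low and 0 higher, beside 29.3% of all tested genes called lower, and the median log2 fold change was -1.46. Some of these genes were known from earlier results to be low in ST2KO when the list was written, so the count is not independent evidence of its direction. Most of them also respond to T cell receptor and stress signals. Fosl2, an AP-1 subunit, stood at 869, 922 and 908 CPM in ST2-low and at 110.1, 120.0 and 136 CPM in ST2KO (7.41-fold lower, edgeR adjusted p = 4.78e-25). Nr4a3, a nuclear receptor, was 5.64-fold lower (82.4 ± 6.59 against 463 ± 15.7 CPM, n = 3, edgeR adjusted p = 4.83e-25). The exception was Fos, named here because its values set it apart, at 358, 397 and 376 CPM in ST2-low and 409, 432 and 349 CPM in ST2KO, groups that overlapped (log2 fold change 0.07 ± 0.06, SE).

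In ST2-high against ST2-low the same list had 5 higher, 3 lower and 6 not called, beside 15.3% of all tested genes higher and 10.8% lower. Areg, the growth factor amphiregulin, rose 2.85-fold (77.7 ± 5.73 against 27.3 ± 2.01 CPM, edgeR adjusted p = 2.01e-15). Odc1, the first enzyme of polyamine synthesis, rose 1.54-fold (1068 ± 57.7 against 696 ± 9.25 CPM, edgeR adjusted p = 1.11e-07). Both were lower in ST2KO than in ST2-low, Areg 3.31-fold and Odc1 3.27-fold. Nr4a3 was at 423 ± 11.2 CPM in ST2-high and was not called against ST2-low (adjusted p = 0.0693). It was called lower in 6 of 17 alternatives. These were DESeq2 size factors, DESeq2's test, limma-voom, the filter of 5 CPM, without ST2-high replicate 3 and without ST2KO replicate 3. Over all 17 edgeR, limma and DESeq2 alternatives the adjusted p lay between 0.0174 and 0.211.

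**Figure D4:**
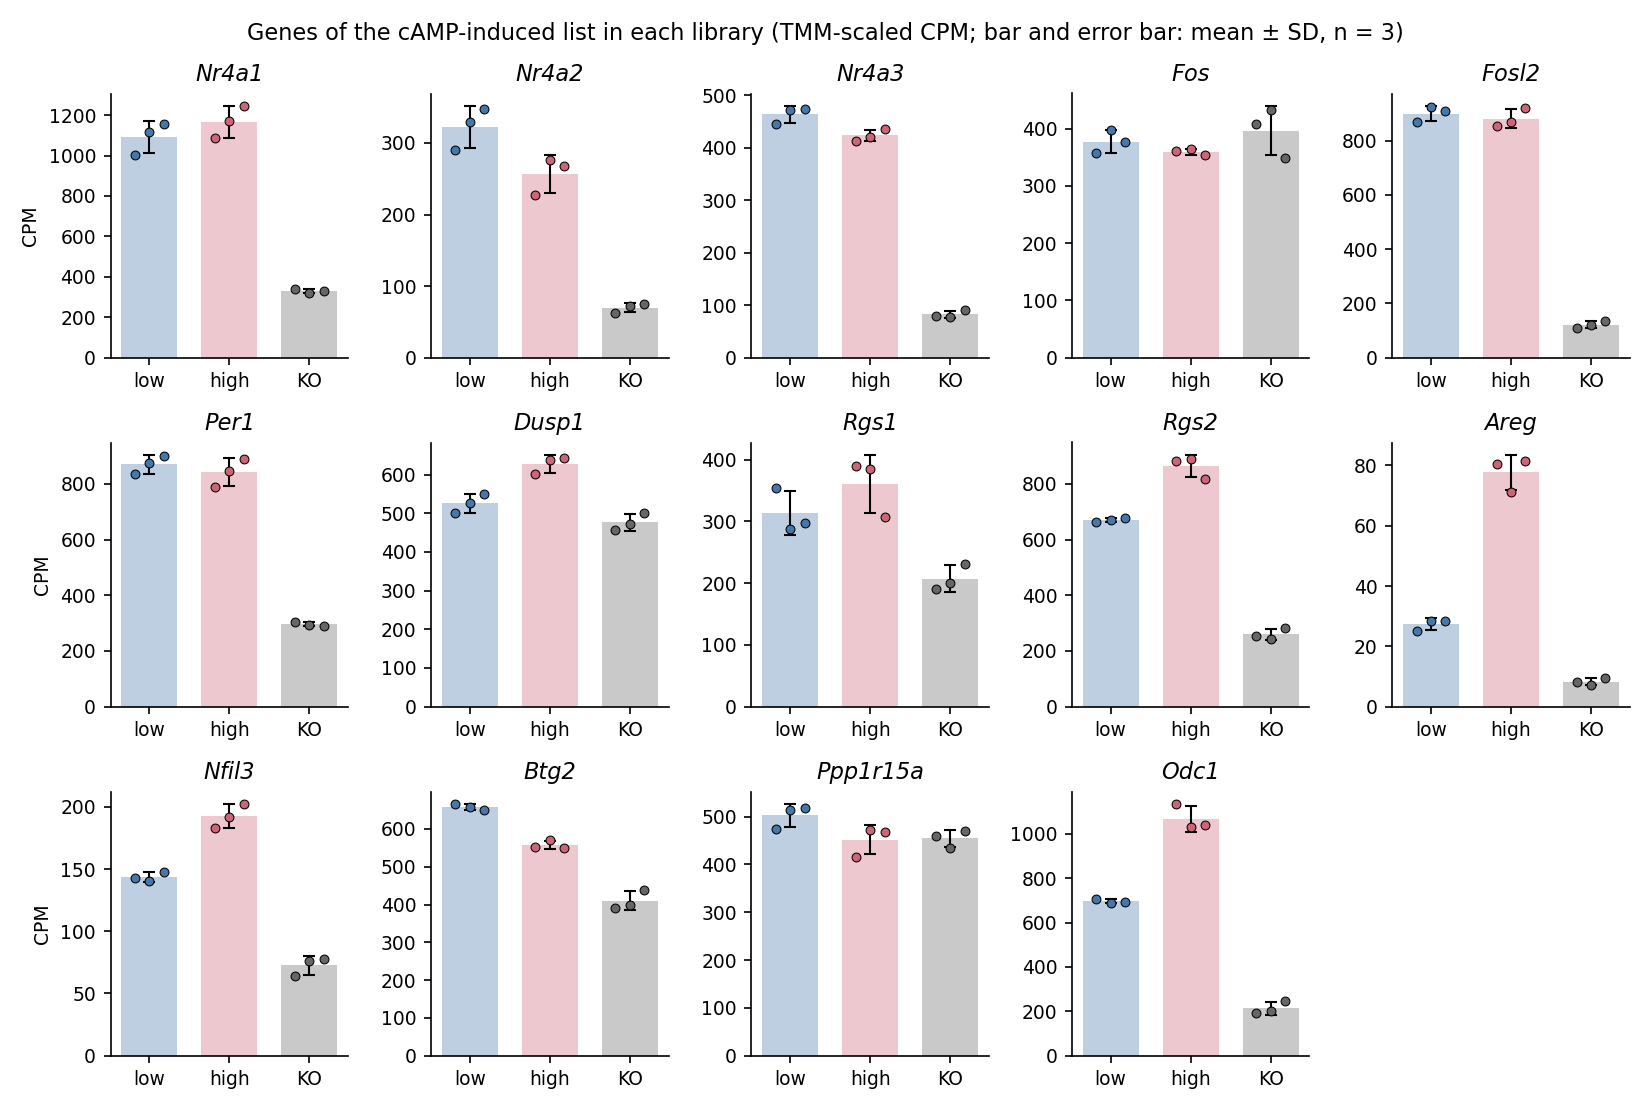
Level of the 14 genes of the cAMP-induced list in each library, as TMM-scaled CPM on linear axes from 0; points are libraries, bars the mean and error bars the SD of 3 libraries. The ST2KO libraries lie below all wild-type libraries except for Fos and for Ppp1r15a, which overlaps ST2-high, and Areg and Odc1 are highest in ST2-high.

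Among CREB factors and coactivators, Creb1 itself moved the other way from Crem. Creb1 stood at 98.5, 100.3 and 94.7 CPM in ST2-low, 128, 125 and 132 CPM in ST2-high, and 208, 203 and 202 CPM in ST2KO. It was 1.31-fold higher in ST2-high and 2.09-fold higher in ST2KO relative to ST2-low (edgeR adjusted p = 4.44e-07 and 1.81e-17). Of the 10 tested genes of this list, 5 were lower and 3 higher in ST2KO relative to ST2-low, beside 62.3% of all tested genes called. Sik1, a kinase that holds CREB coactivators in the cytoplasm and is itself induced by CREB, was 1.90-fold lower in ST2KO (746 ± 27.1 against 1418 ± 54.6 CPM, edgeR adjusted p = 2.05e-15). Crebbp, the coactivator CBP, was 1.29-fold lower (edgeR adjusted p = 5.18e-07).

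Of 10 tested genes of protein kinase A and EPAC, 3 were lower and 3 higher in ST2KO relative to ST2-low, a share near the 62.3% of all tested genes called. Prkar1a, a regulatory subunit that holds the kinase inactive without cAMP, fell 1.61-fold (391 ± 16.3 against 631 ± 32.3 CPM, edgeR adjusted p = 1.83e-12). It was 1.17-fold higher in ST2-high relative to ST2-low (edgeR adjusted p = 0.00178), the only gene of this list called there. Rapgef3, which encodes EPAC1, fell from 13.2, 13.7 and 10.9 CPM in ST2-low to 3.52, 2.81 and 4.09 CPM in ST2KO (3.65-fold, edgeR adjusted p = 5.13e-12). Of 10 tested anchoring proteins of protein kinase A, 6 were higher in ST2KO relative to ST2-low and 0 lower, beside 33.0% of all tested genes called higher. Akap8l was 1.30-fold higher in ST2KO (edgeR adjusted p = 4.09e-06) and 1.26-fold lower in ST2-high (edgeR adjusted p = 0.000133) than in ST2-low, and Akap7 was 1.66-fold higher in ST2KO (edgeR adjusted p = 0.00138).

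Of 9 other phosphodiesterase genes tested, 5 were lower and 2 higher in ST2KO relative to ST2-low, beside 29.3% and 33.0% of all tested genes. Pde2a, which cyclic GMP stimulates, stood at 225, 214 and 212 CPM in ST2-low, 380.2, 345 and 365 CPM in ST2-high, and 169.6, 176 and 161 CPM in ST2KO. It was 1.68-fold higher in ST2-high and 1.28-fold lower in ST2KO than in ST2-low (edgeR adjusted p = 1.58e-12 and 8.72e-07). Within the wild type it thus went the opposite way from Pde4d and Pde3b. Pde7a, a cAMP-specific enzyme of T cells, was lower in both ST2-high (1.25-fold, edgeR adjusted p = 0.000234) and ST2KO (1.58-fold, edgeR adjusted p = 3.30e-10). Pde11a, with 1.41 ± 0.237 CPM in ST2-high and 3.56 ± 0.644 in ST2-low, was at 6.48 ± 0.691 CPM in ST2KO (edgeR adjusted p = 5.08e-05 and 0.000315 against ST2-low).

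Of 8 other Gs-coupled receptor genes tested, 4 were higher and 1 lower in ST2-high relative to ST2-low, beside 15.3% and 10.8% of all tested genes. In ST2KO against ST2-low, 3 were higher and 3 lower, beside 33.0% and 29.3%. Gpr65, a proton-sensing receptor, was at 58.6 ± 1.88 CPM in ST2-low, 87.9 ± 3.91 in ST2-high and 36.8 ± 3.41 in ST2KO (log2 fold change 0.58 and -0.68 against ST2-low, edgeR adjusted p = 2.70e-08 and 5.72e-10). Ptger2, the EP2 receptor for prostaglandin E2, was 1.39-fold higher in ST2-high (35.7 ± 1.80 against 25.6 ± 0.655 CPM, edgeR adjusted p = 6.76e-05). In ST2KO, Ptger2 was at 28.8 ± 3.25 CPM and was not called against ST2-low (adjusted p = 0.113), though it was without ST2KO replicate 1 (adjusted p = 0.0209). Gpr174, a receptor for lysophosphatidylserine, was 1.36-fold higher in ST2KO relative to ST2-low (edgeR adjusted p = 1.01e-08). Of the Gi-coupled receptors, which lower cAMP, 3 were tested. Adra2a, an adrenergic receptor, stood at 0.432, 0.662 and 1.11 CPM in ST2-low and at 7.34, 6.37 and 7.36 CPM in ST2KO (edgeR adjusted p = 2.37e-11).

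Of 8 tested G protein subunit genes, 5 were lower and 1 higher in ST2KO relative to ST2-low, beside 29.3% and 33.0% of all tested genes. In ST2-high against ST2-low, 4 were higher and 0 lower, beside 15.3% and 10.8%. Gnb1, not called there, was called higher without ST2-high replicate 3 (edgeR adjusted p = 0.0326). Gnas, which encodes the stimulatory alpha subunit, was 1.30-fold lower in ST2KO (267 ± 3.57 against 346 ± 9.52 CPM, edgeR adjusted p = 9.56e-08). Gng2 was 1.51-fold higher in ST2KO and 1.28-fold higher in ST2-high relative to ST2-low (edgeR adjusted p = 9.61e-08 and 0.000854). Of 14 tested genes that supply or remove adenosine and prostaglandin E2, 6 were lower and 5 higher in ST2KO relative to ST2-low, beside 29.3% and 33.0% of all tested genes. Nt5e (CD73), which makes adenosine from AMP, was 1.45-fold lower in ST2KO (274 ± 16.8 against 395 ± 12.4 CPM, edgeR adjusted p = 5.62e-10). Entpd1 (CD39), the enzyme before it, was 1.26-fold higher in ST2-high relative to ST2-low (edgeR adjusted p = 0.000916) and 1.46-fold higher in ST2KO (edgeR adjusted p = 2.26e-07), the opposite direction from Nt5e there. Abcc4, a transporter that exports cAMP and prostaglandins, was 1.51-fold higher in ST2KO (edgeR adjusted p = 4.08e-09).

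Markers of some other spleen cells, mainly myeloid cells, neutrophils and plasma cells, were lower in ST2KO as well. The summed level of 12 myeloid and dendritic markers was 153 to 199 CPM in ST2-low, 145.6 to 146 CPM in ST2-high and 44.9 to 58.6 CPM in ST2KO, with 10 of the 12 called lower in ST2KO than in ST2-low, beside 29.3% of all tested genes, which is also the share to set beside the counts of the next lists. For 9 B cell markers the sums were 95.8 to 148 CPM, 111 to 143 CPM and 82.5 to 108 CPM, with 5 called lower. For 7 neutrophil markers they were 9.15 to 36.7 CPM, 12.3 to 20.3 CPM and 2.62 to 4.21 CPM, with 5 of 6 tested called lower. For 5 plasma cell markers, which include Xbp1 and Irf4 of activated Tregs, they were 369.7 to 428 CPM, 421 to 476 CPM and 211 to 233 CPM, with 4 called lower. No marker of these 4 lists was at 0 in all libraries. Of 7 NK cell markers, with sums of 38.4 to 41.9 CPM, 31.9 to 33.2 CPM and 28.4 to 38.3 CPM, 1 of 6 tested was lower and Klra8 was at 0. Of 2 CD8 T cell markers, 0 were called. Among tested markers, 1 of 5 was lower for erythroid cells and platelets, 1 of 1 for mast cells and basophils, and 2 of 3 for endothelial and stromal cells. Cyclases, phosphodiesterases and prostaglandin receptors are also transcribed in myeloid, B, plasma and NK cells and neutrophils. The part of such cells in the levels above, those of Ramp3, Adora2a and Crem included, was not tested. In bulk RNA, fewer cells that express a gene and less RNA per cell cannot be told apart.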

How the data were processed

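RNA sequencing counts of spleen Tregs were analysed in 9 libraries, grouped by the genotype label into 3 groups of 3. The deposited files hold whole-number counts per gene symbol, not normalized, as read from the values and the file headers. For the aligner, build, annotation, counting tool, strand setting and sorting protocol, the sources used here state nothing. Reads of overlapping genes could therefore have been assigned in either way. Of 23420 rows, 27 whose symbol had become a calendar date (0.182% to 0.206% of a library's counts) were left out. The ribosomal RNA row Rn45s took 12.1% to 16.9%.

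Counts were filtered with filterByExpr (minimum count 10, minimum total 15), scaled with TMM factors and tested in R 4.3.3 with edgeR 4.0.16, using glmQLFit (robust) over all 9 libraries, 1 coefficient per group, Benjamini-Hochberg adjustment over 12219 genes at 0.05. The SE of a log2 fold change was taken from its F statistic. The fit was tested on simulated data, in which far fewer genes changed than were called in any comparison here. Genes named beside the 10 were up to 2 per list and comparison, those lowest in adjusted p among genes with 5 CPM or more in the higher group, all calcitonin family genes, and the 5 named genes (no Gm or Rik symbols) with a mean of at least 5 CPM that were most like Ramp3 and Adcy6 by Pearson's r of log2 CPM (prior count 2). The 10 genes, the lists and these rules were chosen with earlier results of these data known. Listed symbols absent from the files were looked up by older symbols in a RefSeq table (GRCm38.p6). Exon lengths are unions of GENCODE M21 exons and may differ from the transcripts present. Alternatives were the replicate number as a block, the Rn45s row left out, leaving out 1 library at a time, a fit on 6 libraries, testing every gene, testing genes that reach 5 CPM in 3 libraries, size factors or the Wald test of DESeq2 1.42.0, and voom of limma 3.58.1. Deviations of same-numbered replicates from their group means correlated little (r at most 0.0984). The numbers are thus not shown to pair the samples, and pairing is not excluded. No 2 replicates agreed within sampling noise, so each library was counted as 1. This does not show that they came from separate animals.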

Additional observations from a re-analysis of the deposited data

How the results depend on the processing

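Over 17 alternatives per comparison, no result that was called reversed its direction. The number of the 10 genes called stayed at 6 to 7 for ST2-high against ST2-low, 9 to 10 for ST2KO against ST2-low and at 9 for ST2KO against ST2-high. The calls that changed were those of Ramp1, Adcy7 and Pde3b in ST2-high against ST2-low and of Adcy6 in ST2KO against ST2-low, each when a library was left out, as given with the gene. The other pathway genes called ranged from 28 (without ST2-high replicate 1) to 41 (no filter) for ST2-high against ST2-low, from 58 (without ST2KO replicate 1) to 70 (limma-voom) for ST2KO against ST2-low, and from 56 (genes that reach 5 CPM in 3 libraries) to 69 (no filter) for ST2KO against ST2-high. With the replicate number as a block, 7, 10 and 9 of the 10 genes and 37, 67 and 68 of the other pathway genes were called in the 3 comparisons, and the numbers are not shown to pair the samples. Without ST2-high replicate 3, 7 of the 10 genes and 36 of the other pathway genes were called in ST2-high against ST2-low. No scaling moved the median of all genes by over 0.1 on the log2 scale. Genes under about 1 CPM, such as Calca and Adm, rest on few counts.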
